A study of Macaca mulatta with 6 samples.

Results

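Estrogen was compared with placebo in cells captured from the rhesus macaque dorsal raphe nucleus and labelled as serotonin neurons. The arrays go with that label only in part. TPH2, which defines these neurons, was above the floor of control probe sets, defined below, on both estrogen arrays and on neither placebo array. That reading changed with the percentile of the floor, as given with the markers. FEV, another serotonin marker, was above the floor on all 4. MBP of myelin and GFAP of astrocytes were strong on all 4, with the values given with the markers. The comparison took 4 of the 6 samples of the series, chosen by their titles: 2 female monkeys given estrogen and 2 given placebo, with 1 array per monkey. All 52766 probe sets of the array that are not controls were eligible. The protocol given for every sample describes Silastic capsules of crystalline steroid, placed under the skin near the shoulder blade and left for 1 month; what the placebo animals received is not stated beyond that word. Titles of the placebo samples include Ovx, taken to mean ovariectomized, whereas estrogen titles name the hormone alone, so whether those animals were also ovariectomized, and the age of any animal, is not given in the sources used here. The other 2 monkeys received estrogen together with progesterone; their arrays entered the normalization, the filter and the fit's estimate of spread. The cells had been cut out of tissue sections by laser capture. Each library thus pools the captured cells of 1 animal, and in such a pool fewer cells of a type cannot be told apart from less RNA per cell.

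Serotonin neurons of the raphe make serotonin from tryptophan with the enzyme TPH2, load it into vesicles with SLC18A2 and send axons through most of the forebrain. Estrogen acts through the nuclear receptors ESR1 and ESR2, which bind DNA and recruit coactivators such as EP300, and through faster signaling at membranes. In many tissues it is known for effects on mitochondria, protein synthesis, dendritic spines and cell survival, and the progesterone receptor gene PGR is a classic target.

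The 4 arrays separated by treatment in how well transcripts were measured. The floor of an array, set here as the 95th percentile of 59 bacterial and tag control probe sets with no expected target, lay at 215.9 and 220.8 in signal under placebo and at 29.99 and 51.6 under estrogen. Probe sets above it made up 37.3% and 36.3% on the placebo arrays and 62.2% and 58.5% on the estrogen arrays. The GAPDH control, which has probe sets at both ends of the transcript, gave a 3′ over 5′ signal ratio of 2374 and 1413 with placebo against 28.0 and 3.41 with estrogen; the actin control gave 523 and 298 against 31.3 and 10.9. Such a ratio is high where labelled RNA covers the 3′ end and little of the 5′ end. Neither ratio overlapped between the groups. Among genes with more than 1 probe set and at least 1 of them above the floor, every probe set was above it for 17.5% and 17.9% of genes with placebo and for 55.3% and 53.8% with estrogen. Across the tested probe sets the estrogen pair correlated at r = 0.862 and the placebo pair at 0.518, probe sets being no independent replicates. The pair given estrogen with progesterone, which enters the estimate of spread, correlated at 0.00048. Its second array had a floor of 282.9, with 28.7% of probe sets above it. In these 4 arrays the treatment and the quality of the signal cannot be told apart, which touches every value below.

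**Figure D1:**
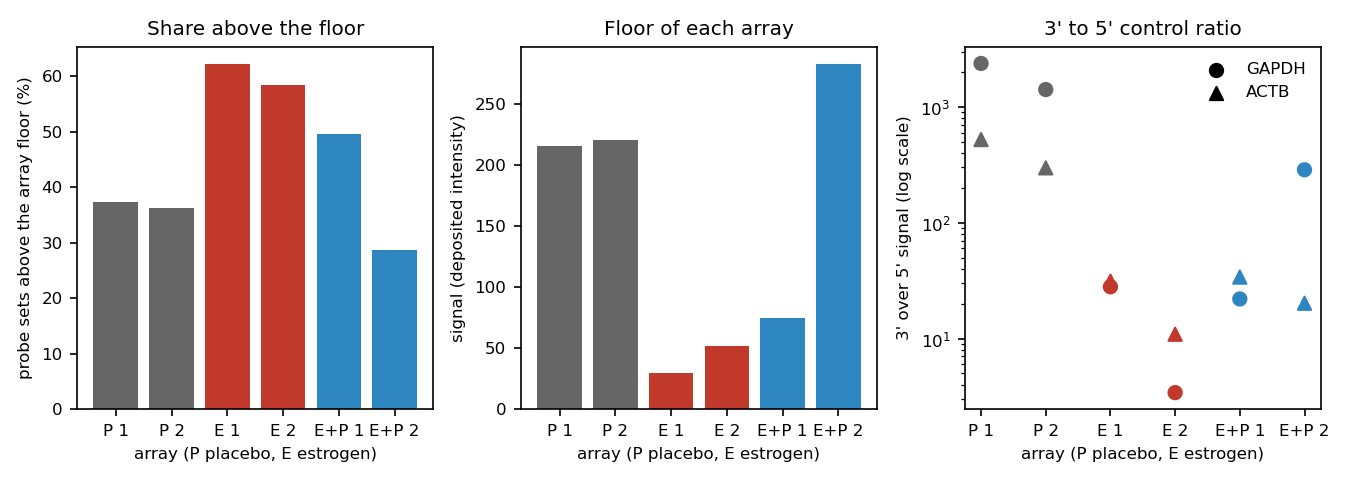
Each array is 1 bar or pair of points (grey placebo, P; red estrogen, E; blue estrogen with progesterone, E+P; the number is the replicate). Left, the percent of probe sets above the array floor; middle, the floor in deposited signal units; right, the 3′ over 5′ signal ratio of the GAPDH (circles) and actin (triangles) controls on a log axis. Both placebo arrays have fewer probe sets above the floor and a higher floor than both estrogen arrays, and the highest ratios of the 6 arrays.

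No probe set differed between estrogen and placebo after adjustment. Of 26383 probe sets tested with limma, 0 had a Benjamini-Hochberg adjusted p under 0.05, a share of 0.0%, and the smallest adjusted p was 0.635. At an unadjusted p under 0.05, 2065 probe sets differed, 1211 higher with estrogen (4.59% of those tested) and 854 lower (3.24%). The unadjusted count is 593 without the first estrogen array, 421 without the second, and 5117 without either array of the third group. The split leaned to higher signals in 58.6% of these calls; without quantile normalization 26.6% of 4192 calls were higher, after median-centering 94.0% of 4541, and after scaling to hybridization controls 99.9% of 6865. Weighting arrays by quality gave 434 adjusted calls, 288 of them higher. Weights were 3.95 for each estrogen array, 0.793 for each placebo array and 0.320 for each array of the third group. Both arrays of a pair get the same weight, so it reflects the spread within the pair and not the quality of 1 array. With 3 residual degrees of freedom the median SE of a gene's difference was 0.938 on the log2 scale. That spread takes in the poorly correlated pair of the third group. With the placebo and estrogen arrays alone, limma gave 5117 unadjusted calls and a smallest adjusted p of 0.133.

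Where several probe sets of a gene were tested, the one with the highest mean stands for it below. This left 9781 genes, with a median log2 difference of estrogen minus placebo of 0.28. Differences are of quantile-normalized log2(signal + 16), with their moderated SE and 2 monkeys per group throughout. Signals are the deposited intensities in the order of the replicates. Of these genes 5925 were above 0 (60.6%). Both estrogen arrays were higher than both placebo arrays on the normalized scale for 2996 genes (30.6%) and lower for 1935 (19.8%). Overlap of the groups is judged on normalized values unless signals are named.

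How many genes can be read on both sides is set by the floors. Of 14132 genes named on the array, 4817 (34.1%) were above the floor on all 4 arrays. Another 2141 (15.2%) were above it on both estrogen arrays and below it on both placebo arrays, and 75 (0.531%) showed the reverse. For 1779 genes all 4 arrays were below the floor. For 5320 (37.6%) the arrays of a group differed, and any difference given for such a gene rests in part on a signal below its floor. A gene below the floor in a whole group has only a bound there, given here as at least N-fold. It sets the other group's mean over the floor, or over the measured value where that is higher, and allows for the floor and not for the spread between animals. Means and floors are normalized log2 values here, with normalized floors of 7.40 and 7.44 under placebo and 6.38 and 6.55 under estrogen, so a bound is relative to the other genes of an array. From deposited signals alone it would be smaller for 60 of the 67 named genes with such a bound that were higher with estrogen, and under 1 for 20 of them, for which no bound is printed.

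**Figure D2:**
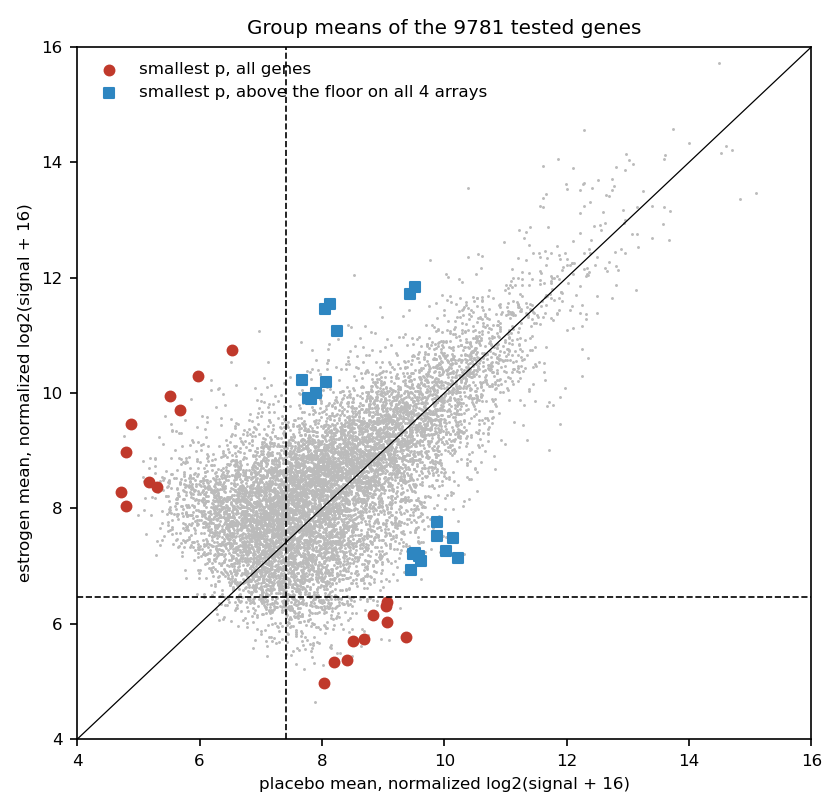
Each grey point is 1 of the 9781 tested genes, at its placebo mean (x axis) and estrogen mean (y axis) of normalized log2(signal + 16), n = 2 arrays each; the solid line marks equal values and dashed lines the mean normalized floor of each group. Red circles are the 10 higher and 10 lower genes named by the smallest unadjusted p within each direction. They lie left of the placebo floor when higher and below the estrogen floor when lower. Blue squares are the 10 higher and 10 lower genes named in the same way among genes above the floor on all 4 arrays. They lie to the right of the placebo floor and above the estrogen floor.

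Among genes above the floor on all 4 arrays, the 10 with the smallest unadjusted p and higher values with estrogen were RPL12, XKRX, NEPRO, PYGL, ACTB, CLK1, APOE, DLGAP5, INSL4 and GOLM1. RPL12, a protein of the large ribosomal subunit, read 319.5 and 306.9 under placebo against 3151 and 4109 under estrogen. The groups stood far apart, with a log2 difference of 2.83 ± 0.82. ACTB, cytoplasmic beta-actin, had 529 and 587 against 5793 and 6503, a difference of 2.32 ± 1.01. APOE, the lipid carrier that astrocytes release in the brain, had 333 and 269 against 3638 and 6979, a difference of 3.41 ± 1.57, and its other tested probe sets gave 3.09 and 5.62. Both PYGL, liver-type glycogen phosphorylase, and GOLM1, a Golgi membrane protein, showed the same separation. PYGL had 247 and 248 against 1788 and 1823, while its other tested probe sets gave log2 differences of 0.16 and 1.07. GOLM1 had 218 and 378 against 1740 and 1746. INSL4, an insulin-family peptide known from placenta, had the widest placebo pair, 1366 and 274, against 6153 and 5248.

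These 10 placebo values sat close to the floor. In units of each array's own floor their median was 1.23 and 1.28 on the placebo arrays and 75.2 and 57.5 on the estrogen arrays. Log2 differences of the 10 ran from 2.06 for DLGAP5, a mitotic spindle protein, to 3.41 for APOE. CLK1, a kinase of splicing factors, differed by 2.11 ± 0.96 and NEPRO, a nucleolar protein, by 2.14 ± 0.88, with 0.13 and 0.89 for its other tested probe sets. With the array signal class as a covariate, XKRX, PYGL, ACTB, CLK1, APOE, DLGAP5 and GOLM1 turned to below 0, to -0.26, -0.88, -0.43, -0.21, -2.47, -0.36 and -0.34. That class sets the placebo arrays and the second array of both hormones against the other 3. It is the same within placebo and within estrogen, so its effect came only from the 2 arrays of both hormones. Those 2 arrays correlated at r = 0.00048 across the tested probe sets. Values with this covariate thus subtract a difference between 2 other monkeys, and they cannot show what signal quality does to this comparison. RPL12, NEPRO and INSL4 kept their sign with the covariate.

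The 10 lower genes read on all 4 arrays were PDZK1IP1, SRRT, OR5AU1, TUBGCP2, CTF1, PEX10, TNFRSF13B, DNAH12, MRGPRE and PIF1. PDZK1IP1, a small membrane protein that binds PDZ proteins, read 955 and 742 under placebo against 44.7 and 120 under estrogen, a difference of -3.09 ± 1.002. CTF1, cardiotrophin-1, a cytokine of the interleukin-6 family, had 825 and 671 against 100 and 77.8, a difference of -2.77 ± 0.96. PIF1, a DNA helicase, had 711 and 663 against 144 and 157, a difference of -2.13 ± 0.80. Signals of all 10 were lower on both estrogen arrays than on both placebo arrays. Their median stood at 3.35 and 2.91 times the floor with placebo and at 2.73 and 1.89 times the floor with estrogen, so relative to each array's own floor the groups lay close. TNFRSF13B, a receptor of B cells, and PIF1 turned to 0.0060 and 0.32 after scaling to hybridization controls. Another tested probe set of SRRT, an RNA processing factor, gave 1.05, and one of TUBGCP2, of the gamma-tubulin complex, gave 0.44, against -2.51 and -2.52 for the probe sets shown. Another of TNFRSF13B gave -0.17. Adjusted p from limma ran from 0.635 to 0.643 over all 20 genes.

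**Figure D3:**
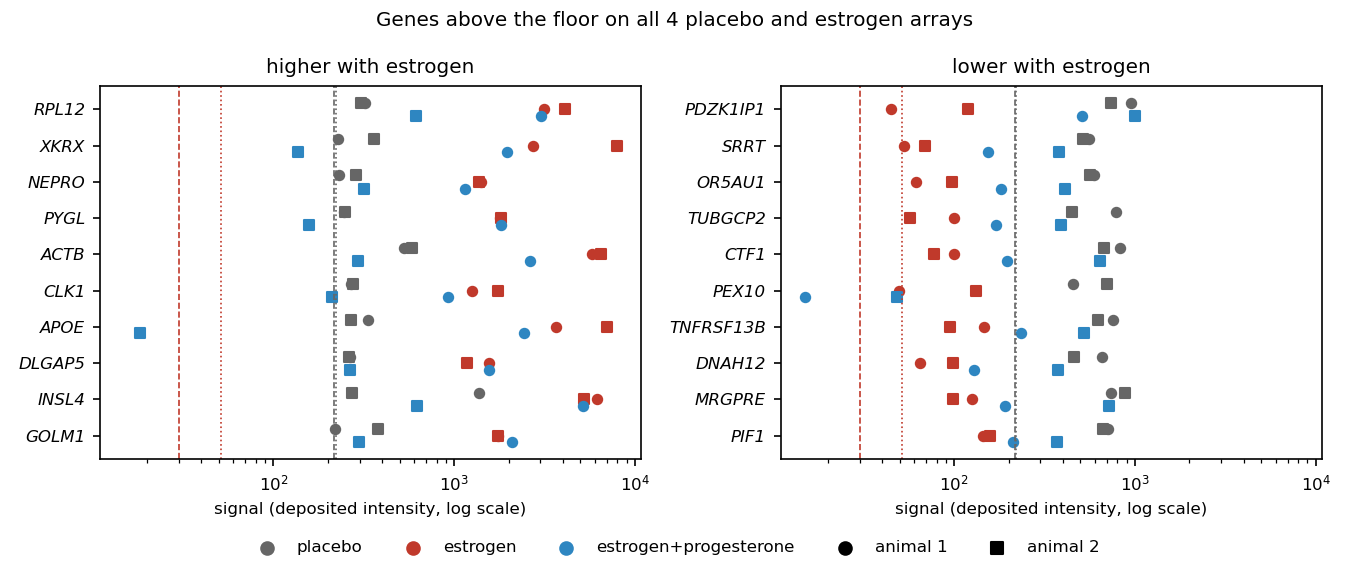
Signals of the 20 genes read above the floor on all 4 placebo and estrogen arrays (x axis, deposited intensity on a log scale), with 1 point per monkey (circles replicate 1, squares replicate 2; grey placebo, red estrogen, blue both hormones). Dashed and dotted vertical lines are the floors of the placebo and estrogen arrays, replicate 1 and 2. Most placebo values of the higher genes lie just above the placebo floors at 215.9 and 220.8, and the lower genes lie between 449.5 and 955 with placebo.

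Over all tested genes, the 10 higher genes with the smallest unadjusted p were read in 1 group only. Neither placebo array read any of them above its floor. SLC25A3, which carries phosphate into mitochondria, read 35.8 and 137 under placebo against 2020 and 1849 under estrogen. It was at least 7.37-fold higher with estrogen. ATP5F1B, the beta subunit of ATP synthase, had 54.8 and 215 against 1515 and 4759, at least 10.04-fold, whereas its other tested probe set gave a log2 difference of 0.45. PSMB7, a catalytic subunit of the proteasome, had 14.1 and 109 against 975 and 1946, at least 5.75-fold. CAPZA2, which caps actin filaments, and DNM2, the dynamin that pinches off endocytic vesicles, had bounds of 1.82-fold and 1.94-fold, or 1.24-fold and 1.38-fold from deposited signals. Estrogen signals of the 10 reached 3.79 to 92.2 times the floor, and placebo signals 0.0621 to 0.972 times.

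The 10 lower genes were read near the floor under placebo. On the first and second estrogen array 1 and 3 of them were above the floor. BMP7, a bone morphogenetic protein, read 535 and 498 under placebo against 5.47 and 52.0 under estrogen, the second just above the estrogen floor. Its log2 difference was -3.60 ± 0.87, and its other tested probe sets gave 0.31 and 1.84. CLCN5, a chloride and proton exchanger of endosomes, had 440 and 451 against 28.8 and 25.1, at least 6.09-fold lower. SULT2A1, which sulfates steroids, had 448 and 358 against 18.3 and 47.8, at least 5.17-fold lower. The remaining 7 were TEX29, GLYAT, SLC26A1, MS4A1, BCL6B, MMP26 and GFRA4. MS4A1, the B cell antigen CD20, had 293 and 321 against 5.18 and 24.8. Placebo signals of the 10 were only 1.08 to 2.48 times the floor. Adjusted p from limma was 0.635 for each of the 20.

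**Figure D4:**
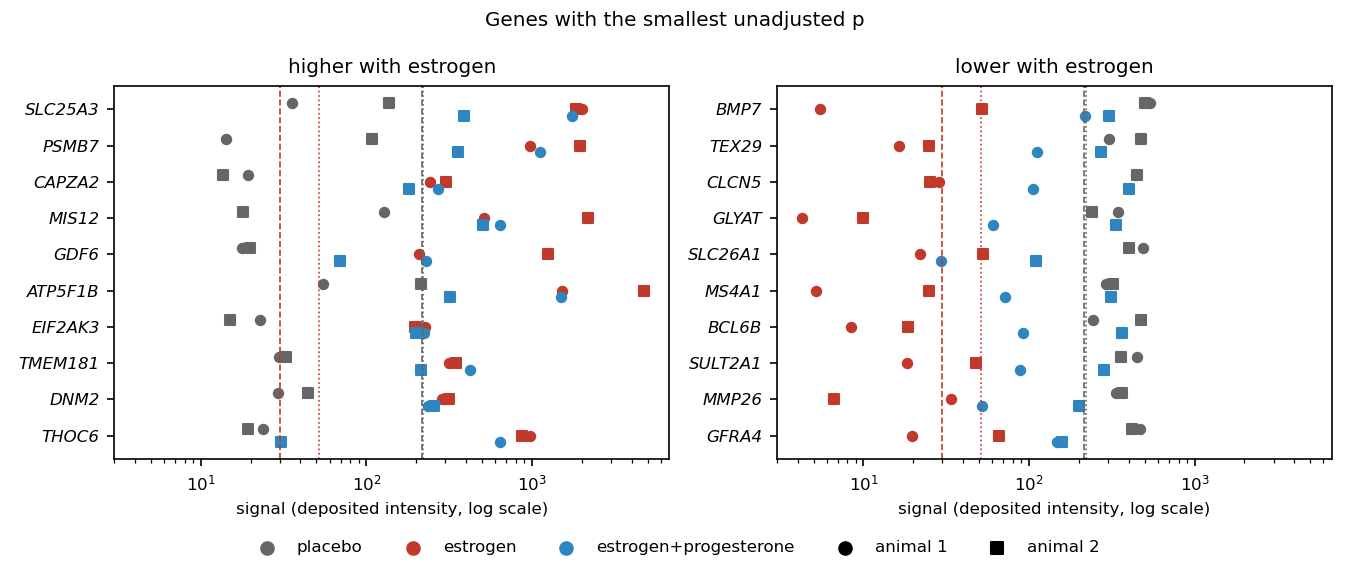
Signals of the 10 higher and 10 lower genes named by the smallest unadjusted p within each direction over all tested genes. They are drawn as in the plot of genes above the floor on all 4 arrays. The x axis is deposited intensity on a log scale, with placebo in grey, estrogen in red and both hormones in blue. Every placebo point of the higher genes is left of the placebo floors, and the placebo points of the lower genes lie between 239 and 535.

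Markers of serotonin neurons were read in part. TPH2 read 126 and 211 under placebo, both below the floor, and 54.0 and 63.2 under estrogen, both above it, and it was not in the fit. Its signals were higher under placebo, yet only the estrogen arrays read it above their floors. With the floor at the 90th percentile the second placebo array also read TPH2, at 211 against a floor of 171. At the 99th percentile the second estrogen array did not, at 63.2 against 66.0. FEV, a transcription factor of serotonin neurons, had 434 and 261 against 80.0 and 122, above the floor on all 4 arrays, a difference of -0.9996 ± 0.84 that was 0.78 after scaling to hybridization controls. SLC18A2, the vesicular monoamine transporter, had 183 and 421 against 738 and 237, and the groups overlapped, with 0.40 for its other tested probe set. HTR1A, the serotonin autoreceptor, was above the floor on the second estrogen array alone, at 56.2, and LMX1B, another serotonin factor, on none of the 4. SLC6A4 and DDC had no named probe set here, and none of the named markers was at 0. Of 13 serotonin genes on the array, 5 were above the floor on all 4 arrays and 10 on both estrogen arrays. Of the 9 tested, 5 were above 0 with a median of 0.41, and 2 were higher and 1 lower with no overlap, or 22.2% and 11.1% against 30.6% and 19.8% of all genes. The median rested on single arrays: it was -0.30 without the first placebo array, -0.02 without the second and 0.08 without the first estrogen array. PTS, of tetrahydrobiopterin cofactor synthesis, had 90.02 and 185 against 287 and 298, at least 1.90-fold higher (1.34-fold from deposited signals). MAOA, which breaks down serotonin, overlapped at 0.41 ± 0.91, and its other tested probe set gave 1.67.

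The nuclear receptors ESR1, ESR2 and PGR were near or below the floor, whereas 8 of 15 receptors and coregulators on the array were above it on all 4 arrays. No array read ESR1 above its floor, at 93.4 and 27.6 under placebo and 14.9 and 10.8 under estrogen. ESR2 had 169 and 247 against 63.4 and 95.3, and it was above the floor on 1 placebo and both estrogen arrays. PGR had 134 and 313 with placebo, the second above the floor, and 2.61 and 4.84 with estrogen, both below it. These 3 receptors were not in the fit. GPER1 was not in it either, at 161 and 23.6 against 73.9 and 63.4, above the floor on both estrogen arrays alone. PAQR7, a membrane progestin receptor, was above the floor on all 4 arrays, at 416 and 437 against 120 and 265. Its difference was -1.04 ± 0.82, and 1.22 after scaling to hybridization controls. PGRMC1, a membrane-associated progesterone binding protein, had 1984 and 4756 against 9146 and 5284, higher on both arrays in signal yet overlapping after normalization, at 0.20 ± 1.07, with -0.31 and 1.20 for its other tested probe sets. Of 10 tested receptors and coregulators 7 were above 0, with a median of 0.37 against 0.28 for all genes. Without the second placebo array that median was 0.06, and without quantile normalization the list lay below all genes (0.15 against 0.26). EP300 had 616 and 527 against 3190 and 2208, a difference of 1.11 ± 1.05, while its other tested probe sets gave 0.90, 1.55, -0.13 and -0.02.

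Of genes often reported to respond to estrogen, 10 of 17 tested were above 0, with a median of 0.22, below that of all genes. CA12, a carbonic anhydrase, read 84.7 and 18.9 under placebo, below the floor, against 352 and 464 under estrogen, at least 2.36-fold higher (1.85-fold from deposited signals). Another tested CA12 probe set stood at -0.02. CXCL12, a chemokine, had 561 and 449 against 114 and 82.5, a difference of -1.97 ± 0.85 that was 0.20 after scaling to hybridization controls. GREB1, a receptor cofactor, overlapped at 1.16 ± 1.10. With no overlap 3 of its genes were higher and 4 lower, or 17.6% and 23.5% against 30.6% and 19.8% of all genes. Without the first placebo array the median was 0.01.

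In all, 46 gene lists were described, and 44 of them had at least 5 tested genes. Medians were above 0 for 38 of the 44 and above the median of all genes for 33. Without quantile normalization 39 lay on the same side of all genes, 30 above and 9 below. Leaving out the first placebo array left 20 lists above all genes, and with the signal class as a covariate 14 were above all genes and 4 above 0. List medians leaned on single arrays. The median turned sign or moved by over 1.5 times for 28 of 44 lists without the first placebo array, 27 without the second, 14 without the first estrogen array and 15 without the second, and for 33 when only probe sets above the floor on all 4 arrays were taken. Over all tested probe sets, named or not, the median moved too. It was 0.17 with all arrays, 0.08 without the first placebo array and 0.09 without the second. Without the first and second estrogen array it was 0.15 and 0.19, and among probe sets above the floor on all 4 arrays -0.17. A list median in such a setting is to be read beside these values. No list held a gene with an adjusted p under 0.05 from limma.

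**Figure D5:**
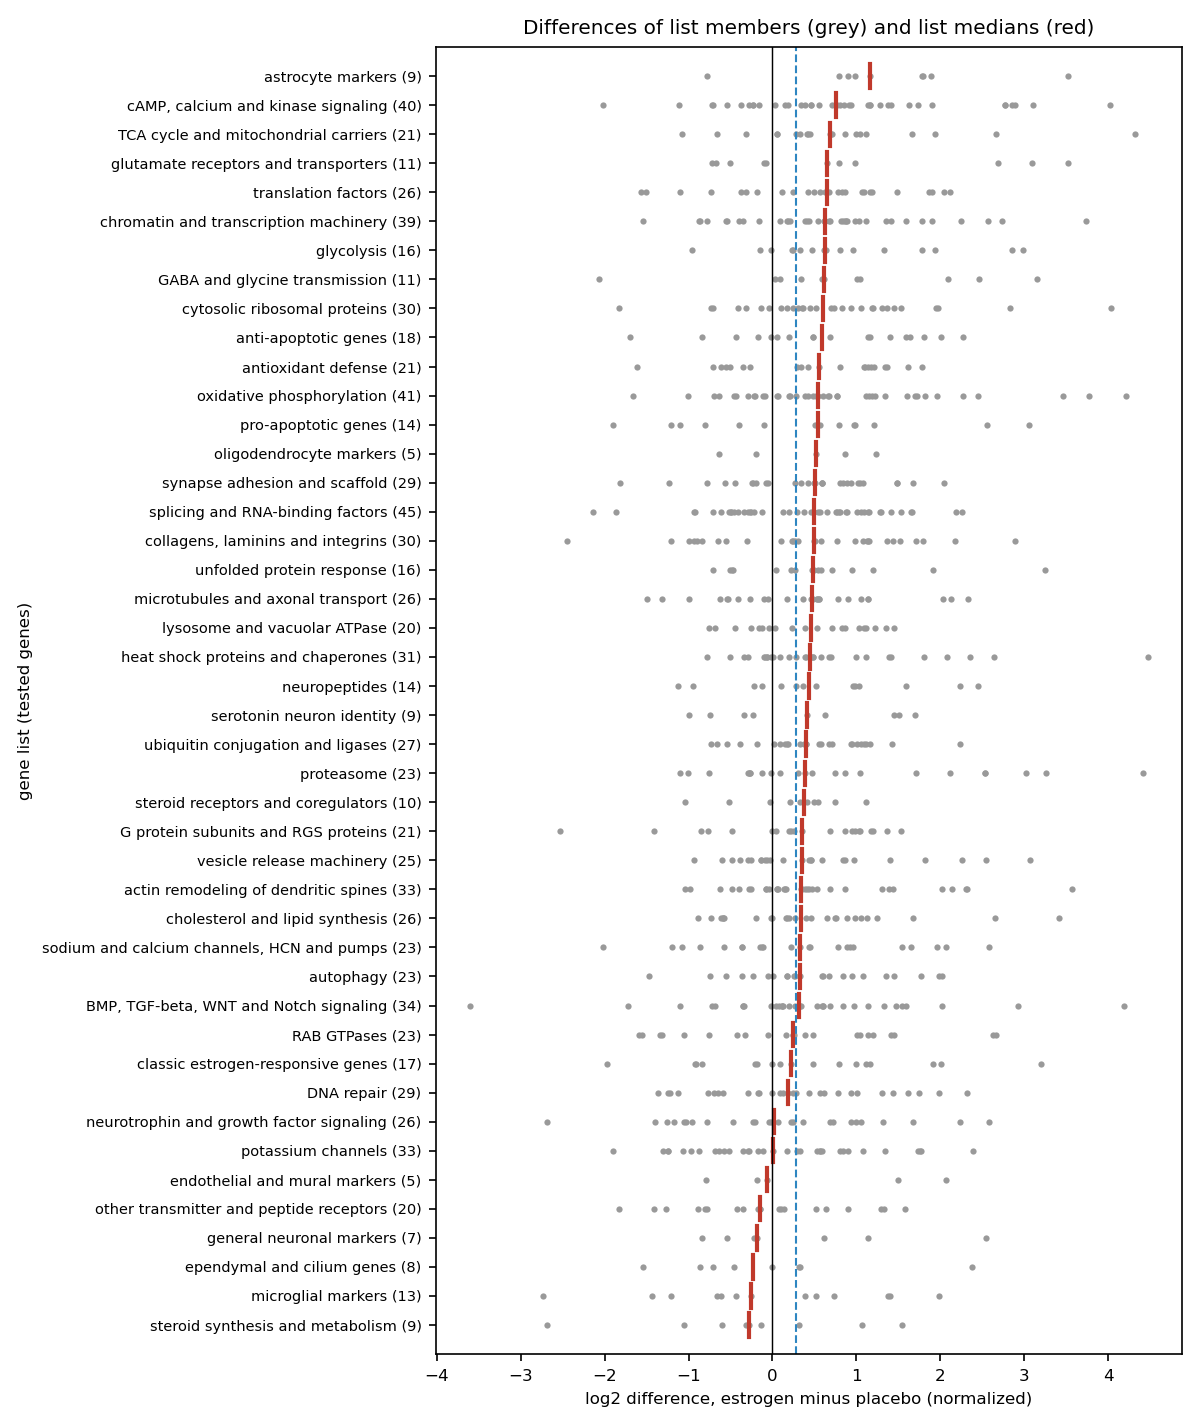
Log2 difference of estrogen minus placebo (x axis) of each tested gene (grey points) in the 44 lists with at least 5 tested genes (y axis, number of tested genes in brackets); red bars are list medians, the blue dashed line the median of all 9781 genes, 0.28, and the black line 0. Single genes spread over several units in every list, and most medians lie within 1 unit of the dashed line.

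Genes of energy metabolism were mostly above 0, as were 60.6% of all genes. Of 41 tested subunits of oxidative phosphorylation, the respiratory chain and ATP synthase, 30 were above 0, with a median of 0.54; 17 were higher and 7 lower with no overlap. These are 41.5% and 17.1%, against 30.6% and 19.8% of all genes. UQCRFS1, the Rieske protein of complex III, read 33.6 and 217 under placebo, below the floor, against 1348 and 1864 under estrogen, at least 6.36-fold higher. NDUFA9, of complex I, had 110 and 62.7 against 957 and 1092, at least 4.49-fold. Mitochondrial carriers and enzymes of the citric acid cycle were above 0 for 18 of 21, with a median of 0.69. MDH1 of that list, the cytosolic malate dehydrogenase, was read on all 4 arrays, at 784 and 3030 against 10436 and 8522. Its difference was 1.66 ± 1.19. In glycolysis 13 of 16 were above 0, with a median of 0.62, and 8 were higher and 1 lower with no overlap, or 50% and 6.25%. PFKFB3, which makes the activator of phosphofructokinase, had 173 and 194, below the floor, against 1418 and 1817, at least 6.40-fold higher. ALDOC, the brain aldolase found mainly in astrocytes, had 2885 and 1743 against 9817 and 16566, a difference of 1.78 ± 1.03, and its other tested probe set gave 4.15. Summed signals of the glycolysis list were 21182 and 14926 under placebo and 38022 and 60478 under estrogen.

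Genes of protein synthesis leaned the same way. Of 30 tested cytosolic ribosomal proteins 23 were above 0, with a median of 0.61, and 18 were higher and 3 lower with no overlap. These are 60% and 10%, against 30.6% and 19.8% of all genes. RPL15 read 702 and 838 under placebo against 6633 and 7208 under estrogen, a difference of 1.95 ± 1.04, close to the 2.00 of its other tested probe set. RPL24 ran the other way, at 995 and 880 against 261 and 484, a difference of -1.83 ± 0.82 that was 1.04 after scaling to hybridization controls. With the array signal class as a covariate, set by the arrays of both hormones alone, the ribosomal median was -2.09, against -0.50 for all genes. RPL15 was -0.96 there. Translation factors were above 0 for 19 of 26, with a median of 0.65, which was 0.29 without the first placebo array. EIF2B1, of the exchange factor for eIF2, had 152 and 177, below the floor, against 495 and 742, at least 3.11-fold higher. EEF2, the elongation factor of translocation, and EIF3A, of the initiation factor eIF3, were lower on both estrogen arrays. EEF2 had 848 and 391 against 216 and 171, and EIF3A 459 and 424 against 126 and 112. Both turned above 0 after scaling to hybridization controls, to 0.89 and 0.63, and other tested EIF3A probe sets gave 1.06 and -0.03.

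Genes of protein folding and breakdown held several of the widest differences. CCT7, a subunit of the chaperonin that folds actin and tubulin, read 23.3 and 13.4 under placebo, below the floor, against 405 and 1231 under estrogen, at least 3.55-fold higher. HSPA4, a heat shock protein of the Hsp110 family, had 113 and 172 against 899 and 771, at least 3.84-fold, and its other tested probe sets gave 0.89 and 2.65. Chaperones were above 0 for 22 of 31, with a median of 0.44. In the proteasome list 14 of 23 were above 0, with a median of 0.39, and 10 were higher and 2 lower with no overlap. These are 43.5% and 8.70%, against 30.6% and 19.8% of all genes. Without the first placebo array the proteasome median was 0.09, and among probe sets above the floor on all 4 arrays it was -0.02. All tested probe sets had medians of 0.08 and -0.17 in these settings. PSMD2, PSMC6 and PSMD11, regulatory subunits, were at least 3.32-, 2.51- and 2.58-fold higher with estrogen. Ubiquitin enzymes were above 0 for 22 of 27, with a median of 0.40. UBE2R2, a conjugating enzyme, had 265 and 125, the second below the floor, against 1054 and 768. Its difference was 2.23 ± 0.94, and its other tested probe sets gave 3.12 and 2.01. Genes of the unfolded protein response were above 0 for 12 of 16, with a median of 0.48, which was 0.12 without the first placebo array. EIF2AK3, the stress sensor PERK, had 22.7 and 15.1, below the floor, against 225 and 196, close to the placebo floors themselves. XBP1, the transcription factor of another branch of that response, had 203 and 287, the first below the floor, against 1125 and 912. Lysosomal genes and autophagy genes had medians of 0.46 and 0.33, with 13 of 20 and 17 of 23 above 0. The lysosomal median was 0.11 without the first placebo array, 0.09 without the second, and -0.08 among probe sets above the floor on all 4 arrays. For all tested probe sets these medians were 0.08, 0.09 and -0.17.

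Genes of cell shape and synapses had medians of 0.25 to 0.51. Actin remodeling genes of spines were above 0 for 23 of 33, with a median of 0.34, and genes of microtubules and axonal transport for 16 of 26, with 0.47. Without the first placebo array these medians were 0.08 and 0.07, and without the second the latter was -0.06. KIF5B, the kinesin heavy chain, was read on all 4 arrays, at 1590 and 409 under placebo and 9788 and 4311 under estrogen, a difference of 2.03 ± 1.42. Synapse adhesion and scaffold genes had a median of 0.51, with 19 of 29 above 0, and of 0.21 without the second placebo array. NLGN4X, a neuroligin, had 1516 and 3668 against 10784 and 13943, a difference of 1.68 ± 1.26, and its other tested probe set gave -1.71. LRRTM1, a postsynaptic adhesion protein, ran lower, at 315 and 314 against 105 and 15.1, the last below the floor. Vesicle release genes were above 0 for 14 of 25, with a median of 0.35, which was -0.07 without the first placebo array. SYT1, the calcium sensor of release, had 296 and 2079 against 8596 and 7648, a difference of 2.54 ± 1.58, and its other tested probe sets gave 0.76, 2.23 and 0.61. The placebo pair of SYT1 was itself split widely. RAB GTPases, switches of membrane traffic, had a median of 0.25 with 14 of 23 above 0, just below all genes, and of 0.03 without the first placebo array, and lay above all genes without quantile normalization.

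Medians of transmitter receptors and their partners ran from -0.15 to 0.65 by family, and the difference between families was not tested. Of 11 tested genes of GABA and glycine transmission 10 were above 0, with a median of 0.61, and 7 were higher and 1 lower with no overlap, or 63.6% and 9.09% against 30.6% and 19.8% of all genes. GABRA2, a GABA-A receptor subunit, read 55.6 and 20.2 under placebo, below the floor, against 448 and 234 under estrogen, at least 2.00-fold higher (1.48-fold from deposited signals). GABRA4 had 34.01 and 70.4 against 231 and 192, close to the placebo floors themselves. GAD2, which makes GABA, had 168 and 208 against 314 and 1466, at least 3.53-fold, and its other tested probe set gave 0.50. GLRA3, a glycine receptor subunit, was the exception, at 269 and 371 against 45.6 and 20.8. Of 11 glutamate genes 6 were above 0, with a median of 0.65, which was 0.09 without the first placebo array. GRIA1, an AMPA receptor subunit, had 163 and 13.9 against 335 and 726, at least 2.73-fold higher. SLC1A2, the glutamate transporter of astrocytes, had 1947 and 46.7, the second below the floor, against 8965 and 4917. Receptors for other transmitters and peptides were above 0 for 9 of 20, with a median of -0.15, which was 0.08 without the second estrogen array. CHRNB2 and CHRNA3, nicotinic receptor subunits, had 322 and 357 against 68.7 and 33.8, and 322 and 391 against 92.8 and 85.5. CHRNA3 turned to 0.57 after scaling to hybridization controls.

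Potassium channels split evenly, with 17 of 33 above 0 and a median of 0.01, and 11 were higher and 8 lower with no overlap. These are 33.3% and 24.2%, near the 30.6% and 19.8% of all genes. KCNN3, the calcium-activated channel SK3 that shapes firing of monoamine neurons, read 42.8 and 97.0 under placebo, below the floor, against 264 and 263 under estrogen, at least 1.78-fold higher (1.21-fold from deposited signals). KCNS2, a silent channel subunit, had 483 and 521 against 71.4 and 138, a difference of -1.90 ± 1.04 that was 0.24 after scaling to hybridization controls, and its other tested probe set gave -1.10. Sodium and calcium channels and pumps had a median of 0.33, with 13 of 23 above 0, and of -0.12 without the first placebo array. SCN2A had 130 and 442, the first below the floor, against 1295 and 3263. Its difference was 2.58 ± 1.19, with 1.76 for its other tested probe set. SCN9A had 367 and 319 against 45.2 and 35.2, a difference of -2.02 ± 0.92. Both are voltage-gated sodium channels, and neither pair overlapped.

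Signaling genes were mostly above 0, as were all genes. Of 40 tested genes of cAMP, calcium and kinase signaling, 30 were above 0, with a median of 0.76. At an unadjusted p under 0.05, 7 were higher (17.5%) and 1 lower (2.50%), against 3.68% and 1.24% of all genes, and 19 were higher (47.5%) and 3 lower (7.50%) with no overlap, against 30.6% and 19.8%. Without the second placebo array the median was 0.47. CAMK2B, the beta subunit of calcium/calmodulin kinase II, read 277 and 27.9 under placebo, the second below the floor, against 2152 and 2553 under estrogen. Its difference was 4.02 ± 1.16, and its other tested probe sets gave 2.63 and 1.70. ATF2, a transcription factor of the CREB family, had 73.6 and 21.5, below the floor, against 359 and 354, at least 2.15-fold higher (1.63-fold from deposited signals). GSK3B, a kinase of the WNT and insulin pathways, had 76.6 and 23.3 against 412 and 225, at least 1.92-fold (1.40-fold). PRKAR1B, which holds protein kinase A inactive until cAMP binds, had 24.9 and 104 against 272 and 379, at least 2.03-fold (1.47-fold). G protein and RGS genes had a median of 0.36, with 15 of 21 above 0, and of -0.17 without the first placebo array. RGS12, which shortens G protein signals, was lower, at 902 and 619 against 99.9 and 123, and its other tested probe set gave -0.21. Neurotrophin and growth factor genes split evenly, 13 of 26 above 0 with a median of 0.02 that was -0.20 without the first placebo array and -0.23 without the first estrogen array. BMP, TGF-beta, WNT and Notch genes had a median of 0.32, with 25 of 34 above 0, and of -0.06 without the first placebo array, and lay below all genes without quantile normalization.

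Genes of cell death and of survival had medians close to each other with all 4 arrays, but -0.16 and 0.44 without the second placebo array. Of 14 pro-apoptotic genes 8 were above 0, with a median of 0.54, and the list lay below all genes without quantile normalization, at 0.16. Of 18 anti-apoptotic genes 13 were above 0, with a median of 0.58. HTRA2, a mitochondrial protease released in apoptosis, read 33.97 and 62.8 under placebo, below the floor, against 383 and 384 under estrogen, at least 2.26-fold higher (1.76-fold from deposited signals), and its other tested probe set gave a log2 difference of 1.90. CASP8, the initiator caspase, had 207 and 487 against 42.2 and 33.7. MCL1, a BCL2 family protein that blocks apoptosis, had 205 and 300, the first below the floor, against 757 and 891. Its difference was 1.64 ± 0.90, with 0.48 for its other tested probe set. In antioxidant defense 14 of 21 were above 0, with a median of 0.55. SOD2, the mitochondrial superoxide dismutase, had 124 and 168, below the floor, against 223 and 234, close to the placebo floors themselves, and its other tested probe set gave 1.03.

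In the nucleus, chromatin and transcription genes were above 0 for 30 of 39, with a median of 0.63, splicing and RNA-binding factors for 28 of 45, with 0.50, and DNA repair genes for 17 of 29, with 0.18. Without the first placebo array the 3 medians were 0.35, 0.12 and -0.06. MED14, of the Mediator complex that links activators to RNA polymerase II, read 45.6 and 55.4 under placebo, below the floor, against 176 and 2581 under estrogen, at least 3.82-fold higher, and its other tested probe sets gave log2 differences of 2.27, 0.40 and 1.33. The estrogen pair of MED14 was itself split widely. HNRNPU had 66.8 and 178 against 273 and 570, at least 2.35-fold higher (1.81-fold from deposited signals). HNRNPM, also an RNA-binding protein of the spliceosome, had 594 and 553 against 162 and 74.8. Another tested HNRNPM probe set gave 2.96 against -2.14 for the one shown. Among all 3276 genes with at least 2 tested probe sets, 1710 (52.2%) had every probe set on the same side of 0.

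Markers of other cells in the tissue stood beside these groups. Of 9 tested astrocyte markers 8 were above 0, with a median of 1.16, and 6 were higher and 0 lower with no overlap, or 66.7% and 0% against 30.6% and 19.8% of all genes. Their summed signal was 24843 and 25581 with placebo and 70918 and 82244 with estrogen. GFAP, the astrocyte filament, had 5358 and 2224 against 12884 and 18296, a difference of 1.80 ± 1.02, with 1.26 for its other tested probe set. With the array signal class as a covariate, set by the arrays of both hormones alone, the astrocyte median was -0.69, against -0.50 for all genes. GFAP was -0.53 there. Oligodendrocyte markers summed to 34988 and 49359 against 43139 and 57406, with 3 of 5 above 0 and a median of 0.52, which was 0.07 without the first placebo array. MBP, of myelin, had 30551 and 40944 against 25757 and 43656, which overlap in signal; the normalized difference was 1.23 ± 1.05, and -0.08 without quantile normalization. Another tested MBP probe set was far apart, with 661 and 319 under placebo, 5299 and 21082 under estrogen and a difference of 4.02 ± 1.39. General neuronal markers summed to 10773 and 15567 against 31361 and 31866, with 3 of 7 above 0 and a median of -0.19, which was 0.71 without quantile normalization and 0.22 without the second estrogen array. STMN2, a microtubule regulator of neurites, had 1073 and 2941 against 6209 and 10950, a normalized difference of 1.14 ± 1.08, with 3.22 for its other tested probe set. TH, which makes dopamine and marks catecholamine neurons, had 138 and 63.96, below the floor, against 1074 and 149. SLC6A3, the dopamine transporter, had 602 and 538 against 7760 and 603, so the first estrogen array alone was high, and without it the difference was -0.51. No named astrocyte, oligodendrocyte or neuronal marker was at 0 on any array. The part of these cells in the differences was not tested.

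The differences also varied with the level of a gene. With genes split by mean level into 4 bins of equal size, the median from the lowest bin to the highest was 0.36, 0.44, 0.28 and 0.12. Without quantile normalization the same bins gave -0.57, -0.12, 0.35 and 0.96. The direction of the gradient over the bins thus turned with the normalization.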

How the data were processed

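Per the labels' protocols, RNA came from a microkit extraction and carried biotin. Values in the deposited table are linear intensities, 1 for each probe set of an array, and as the values show the authors had scaled every array to a mean near 200 once the outer 2% at each end was trimmed. The software behind them is not given in the sources used here. Scaling lifts background along with signal on an array with little labelled transcript. The platform annotation gave 1 gene symbol for 24956 of the 52766 probe sets outside the controls, several for 361 and none for 27449; only the first kind was named, and 24616 of these matched the RefSeq gene table. Quantile normalization of log2(intensity + 16) shifted the median difference over tested probe sets, which was -0.14 before it and 0.17 after. Those in the upper part by mean level, from the 50th percentile up, were fitted over all 6 arrays with a mean per group in limma 3.58.1 (R 4.3.3), two-sided, with Benjamini-Hochberg adjustment; the fit was tested on simulated data. Tables were made with pandas 2.3.3. An exact permutation test of 2 against 2 animals could not reach the threshold of 0.05 and was not run. The median log2 difference of all tested probe sets was 1.15 after median-centering and 2.30 after scaling to the 27 hybridization controls.

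Genes were named by rule. First came the 10 higher and 10 lower genes with the largest change past the adjusted threshold or, none being past it, the smallest unadjusted p among differences of at least 1 in size whose groups did not overlap. The same was done among genes above the floor on all 4 arrays. Up to 4 members of each list with the smallest unadjusted p followed, and 20 genes of serotonin transmission, hormone receptors and cell type markers were fixed by name. Uncharacterized loci were left out. LMX1B is not in these rules but among the markers used to check the cell type. The genes, lists and rules were chosen with earlier results of these data known. Alternatives covered the offset, normalization, filters, floor percentile, single arrays, replicate block, prior, array weights, groups in the fit and signal class. A search of promoters for estrogen response elements was not run. Genomic positions are not given, as no source used here names the build.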

Additional observations from a re-analysis of the deposited data

How the results depend on the processing

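The count of 0 probe sets at an adjusted p under 0.05 from limma held in every alternative except array quality weights, which gave 434. The 2065 unadjusted calls became 4192 without quantile normalization, 4541 after median-centering, 6865 after scaling to hybridization controls, 4648 with no filter, 653 with a filter at the 75th percentile, 5231 with array weights, 5117 with the placebo and estrogen arrays alone and 3385 once the signal class entered as a covariate, of which 29.2% were higher. Among probe sets above the floor on all 4 arrays there were 377, 6.6% of them higher. With normalized floors of 7.40 and 7.44 under placebo but 6.38 and 6.55 under estrogen, this filter keeps lower values under estrogen. Its share of higher calls therefore cannot be read as a direction of change. Among probe sets above the highest normalized floor on all 4 arrays, chosen after seeing the data, there were 133, 16.5% of them higher. Median log2 differences under the 2 filters were -0.17 and 0.05. The filters change how many probe sets are tested; the cause of the other changes was not tested. Leaving out 1 array gave 421 to 5117 calls, and with the first or second placebo array out 76.9% or 73.9% were higher. Arrays of the same replicate number shared no deviation (correlation of deviations -0.0318 between the 2 groups), which cannot show whether the animals were paired. A fit with replicate numbers as a block gave 2072 calls and 0 after adjustment.

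Of 44 lists, 38 had a median above 0 and 4 with the signal class. Above all genes were 33, 14 with the signal class and 20 to 33 when 1 array was left out. The effect of the signal class was set by the arrays of both hormones alone, so it cannot adjust this comparison for signal quality. Signs turned for BMP7 (0.31 and 1.84), SRRT (1.05) and TUBGCP2 (0.44) by other probe sets; for TNFRSF13B (0.0060) and PIF1 (0.32) by hybridization scaling; and with the signal class for XKRX (-0.26), PYGL (-0.88), ACTB (-0.43), CLK1 (-0.21), APOE (-2.47), DLGAP5 (-0.36), GOLM1 (-0.34) and MRGPRE (0.0067). Of the 168 other named genes in the fit, signs turned for 78 with the signal class, 31 by hybridization scaling, 9 by median-centering, 5 without quantile normalization, 1 with an offset of 1 and 8, 3 and 3 without the first placebo, second placebo and first estrogen array. With the floor at the 90th percentile 1324 genes were above it with estrogen alone and 141 with placebo alone; at the 99th percentile the latter was 32. Signal over background limits placebo values near the floor, and 2 animals per group limit every test.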

Other observations

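Genes of lipids and steroids went 2 ways in their counts. Of 26 tested genes of cholesterol and lipid synthesis 17 were above 0, with a median of 0.34, and 11 were higher and 4 lower with no overlap, or 42.3% and 15.4% against 30.6% and 19.8% of all genes. Without the second placebo array the median was 0.17. ELOVL6, which lengthens fatty acids, read 709 and 315 under placebo and 2052 and 2003 under estrogen, a difference of 1.25 ± 0.99 (SE, n = 2 per group), and its other tested probe sets gave 0.24, 2.77 and 1.48. INSIG2, a brake on cholesterol synthesis, read 9.21 and 352, the first below the floor, against 653 and 702. Its other tested probe set gave 0.47. Of 9 genes of steroid synthesis and metabolism 3 were above 0, with a median of -0.28, which was 0.06 without the second estrogen array. HSD17B8, a hydroxysteroid dehydrogenase, read 671 and 453 against 299 and 341, a difference of -1.06 ± 0.86 that was 0.48 after median-centering and 1.63 after scaling to hybridization controls.

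Neuropeptide genes were above 0 for 10 of 14, with a median of 0.44, which was -0.02 without the first placebo array. UCN, urocortin, a peptide of the stress system, read 191 and 23.2, below the floor, against 758 and 162, at least 2.11-fold higher (1.61-fold from deposited signals), with signals that overlap between the groups. Collagens, laminins and integrins were above 0 for 21 of 30, with a median of 0.50. With no overlap 12 were higher and 7 lower, or 40% and 23.3%, against 30.6% and 19.8% of all genes. ITGB3, the beta-3 integrin, read 1348 and 554 against 172 and 140, a difference of -2.45 ± 1.25 that was 0.03 after scaling to hybridization controls. COL14A1 read 39.4 and 14.3, below the floor, against 229 and 138, near or below the placebo floors, while its other tested probe sets gave 2.14, -0.22 and -2.55.

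Microglial, endothelial, ependymal and erythrocyte markers had medians below 0. Of 13 tested microglial markers 6 were above 0, with a median of -0.25, which was 0.11 without the second placebo array and 0.01 without the second estrogen array. Their summed signal was 3931 and 4829 under placebo and 4853 and 4782 under estrogen. TMEM119, a microglial membrane protein, read 227 and 354 against 18.6 and 5.003, at least 2.94-fold lower, and C1QB, of complement, 33.3 and 164 against 166 and 260. Of 5 endothelial and mural markers 2 were above 0, with a median of -0.07, which was 0.39 without the first placebo array and 0.07 without the second estrogen array. Of 8 ependymal and cilium genes 3 were above 0, with -0.23. Only 2 erythrocyte markers were tested. HBB, a globin chain, read 294 and 310 against 20.5 and 53.7, of which 20.5 was below the floor. ALAS2, of heme synthesis in red cells, read 510 and 291 against 45.0 and 87.5, a log2 difference of -1.73 ± 1.05. It turned to 0.06 after scaling to hybridization controls, and another tested ALAS2 probe set gave -0.25. Whether these sets differ from the astrocyte markers was not tested.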
